A study of Mus musculus with 15 samples.

Results

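Krueppel-like factors (KLFs) are transcription factors with zinc fingers at the carboxyl end, and 10 of them with a known place in studies of axon growth were followed here: Klf2, Klf4, Klf5, Klf6, Klf7, Klf9, Klf10, Klf12, Klf13 and Klf15. They were chosen by name, not by level, though with earlier results of these data known. They are 10 of 54532 genes in the deposited count table. Of the 10, 9 had enough counts to be tested among 19259 genes, and Klf5 did not.

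The retinas came from C57BL/6 mice of wild type genotype, labelled as 5 weeks old, although the study's methods give a different age. Each of 5 groups had 3 libraries. ONC-F retinas had optic nerve crush (ONC) and needling at acupoint GB20, ONC-J retinas had crush and needling at BL1, and ONC-S retinas had crush and needling at GV16, the sham site for GB20. ONC retinas had crush alone, and WT retinas came from naive mice without crush. All crushed retinas were taken 2 days after both optic nerves had been injured. The study's methods give xylazine and ketamine anesthesia before needling at GB20 or BL1. They do not name GV16 there or say whether later needlings had anesthesia too. Whether ONC mice were anesthetized again is not given either, so needling and anesthesia after the crush cannot be told apart. The ONC-S libraries carry sample numbers apart from the others, and the methods do not describe this group. Whether they were a separate batch is not given, so GV16 needling and a batch cannot be told apart. The study's methods call the replicates biological but do not say whether a library is 1 mouse or a pool, and p-values measure the spread between these libraries. A whole retina was sequenced, and fewer cells of a type and less RNA per cell cannot be told apart.

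KLF proteins bind GC-rich boxes and CACCC boxes, and their effect on a gene depends on the cofactor that the amino end recruits. One branch, with Klf12 here, binds CtBP corepressors. The next, with Klf2, Klf4, Klf5, Klf6 and Klf7, holds mainly activators that recruit acetyltransferases. Another branch, with Klf9, Klf10 and Klf13, binds the SIN3A corepressor, and Klf15 is usually placed outside these branches. In retinal ganglion cells (RGCs), the neurons whose axons form the optic nerve, Klf6 and Klf7 are known to promote neurite growth, whereas Klf4 and Klf9 suppress it and increase as the cells mature.

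The libraries held 14482435 to 26112762 counts each. Of the 20 RGC markers, 16 were called lower in ONC than in WT retinas at an adjusted p under 0.05 in edgeR's quasi-likelihood test and 0 higher, with 17 lower and 1 higher at an unadjusted p under 0.05, where 2.11% of all genes were called and 11% had such a p. Their summed level was 689 to 893 CPM, counts scaled by library size, in the 12 crushed libraries against 1125 to 1193 CPM in WT. The RGC list holds genes that the study itself reported as lower in these libraries, so its count is not an independent check. Of 22 axon injury genes, 13 were called higher in ONC than in WT and 0 lower, with 17 higher and 1 lower at an unadjusted p under 0.05. This list too was chosen with earlier results of these data known, so its count is not an independent check either. The libraries were rich in rod transcripts, with rod markers summing to 53614 to 65107 CPM. ONC replicate 2 had 141.8 CPM of Gfap, a marker of reactive glia, against 34.6 and 59.5 CPM in the other ONC libraries, and WT replicate 1 had 1305 CPM of the lens crystallin Cryaa against at most 45.1 CPM elsewhere. Without both libraries, 15 RGC markers were called lower and 12 axon injury genes higher, where 1.12% of all genes were called.

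The promoters of 3 members are shown because of their calls. Klf6 was the member called in ONC against WT. Klf13 and Klf15 were called higher in the 3 needled groups than in ONC, a comparison added after the levels had been seen. Each runs from 250 bases before the start to 10 bases after it, 5′ to 3′ on the strand of the gene, from RefSeq on GRCm38.p6. Capitals mark any of 3 motifs, searched on both strands: the GC box as GGGCGG, the CACCC box with the letters CCACCC, and the E-box as CACGTG. The Klf6 window is chr13:5861239-5861498 on the plus strand, that of Klf13 is chr7:63938906-63939165 on the minus strand, and that of Klf15 is chr6:90462326-90462585 on the plus strand.
Klf6: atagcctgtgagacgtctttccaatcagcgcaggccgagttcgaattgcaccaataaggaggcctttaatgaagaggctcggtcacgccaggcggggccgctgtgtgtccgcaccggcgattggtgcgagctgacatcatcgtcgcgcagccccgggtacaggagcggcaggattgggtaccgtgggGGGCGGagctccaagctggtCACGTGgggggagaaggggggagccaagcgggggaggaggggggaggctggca
Klf13: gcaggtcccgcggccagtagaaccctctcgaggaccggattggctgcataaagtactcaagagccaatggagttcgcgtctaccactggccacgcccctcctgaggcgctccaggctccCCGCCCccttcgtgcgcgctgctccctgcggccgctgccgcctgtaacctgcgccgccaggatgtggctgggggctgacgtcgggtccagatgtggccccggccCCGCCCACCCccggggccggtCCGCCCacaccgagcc
Klf15: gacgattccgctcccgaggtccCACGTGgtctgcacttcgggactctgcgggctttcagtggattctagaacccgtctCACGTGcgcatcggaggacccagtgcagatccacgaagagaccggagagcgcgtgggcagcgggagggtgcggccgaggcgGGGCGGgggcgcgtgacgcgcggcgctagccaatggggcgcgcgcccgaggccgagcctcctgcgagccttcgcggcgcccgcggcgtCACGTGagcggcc
The Klf6 window holds 1 GC box and 1 E-box. The Klf13 window holds 3 GC boxes and 1 CACCC box, which shares 2 bases with a GC box. The Klf15 window holds 1 GC box and 3 E-boxes, the last of them across the start. Windows of 250 bases before to 50 bases after the start were searched for 8 of the 10 members, among 32544 distinct windows; Klf5 and Klf10 were not in the table. GC boxes occur in 35.88% of all windows, CACCC boxes in 31.55% and E-boxes in 7.166%. Klf2 had 2 GC boxes and 1 CACCC box, Klf4 had 4 GC boxes and 1 E-box, Klf7 had 1 GC box and 3 CACCC boxes, and Klf9 and Klf12 had none of these letters. Also searched on both strands were the AP-1 site TGACTCA, in 5.193% of windows, the cAMP response element TGACGTCA, in 1.801%, and the palindromic glucocorticoid response element, AGAACA and TGTTCT with 3 bases between, in 0.009218%. Those letters were not in the window of any of the 8 members.

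The members spanned a wide range of levels. By FPKM, the count of fragments scaled by transcript length and library size, Klf9 came first with a mean of 42.6 over the 15 libraries (37.4 to 51.1). Klf12 followed with 8.87 FPKM (6.14 to 11.4), Klf6 with 5.96 FPKM (4.54 to 7.58), Klf13 with 4.44 FPKM (3.15 to 6.02) and Klf15 with 4.06 FPKM (2.90 to 4.94). The lower members were Klf7 with 2.28 FPKM (1.95 to 2.59), Klf10 with 1.94 FPKM (1.51 to 3.04), Klf2 with 1.43 FPKM (1.08 to 2.06), Klf4 with 0.475 FPKM (0.324 to 0.704) and Klf5 with 0.0384 FPKM. Among neighbours in this order, the ranges of Klf9 and Klf12, Klf15 and Klf7, Klf2 and Klf4, and Klf4 and Klf5 did not overlap. The others overlapped: Klf13 exceeded Klf15 in 11 of 15 libraries, and Klf7 exceeded Klf10 in 13, as did Klf10 over Klf2. Klf9 lay at the 95.4th percentile of mean FPKM among tested genes and Klf4 at the 14.0th.

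**Figure D1:**
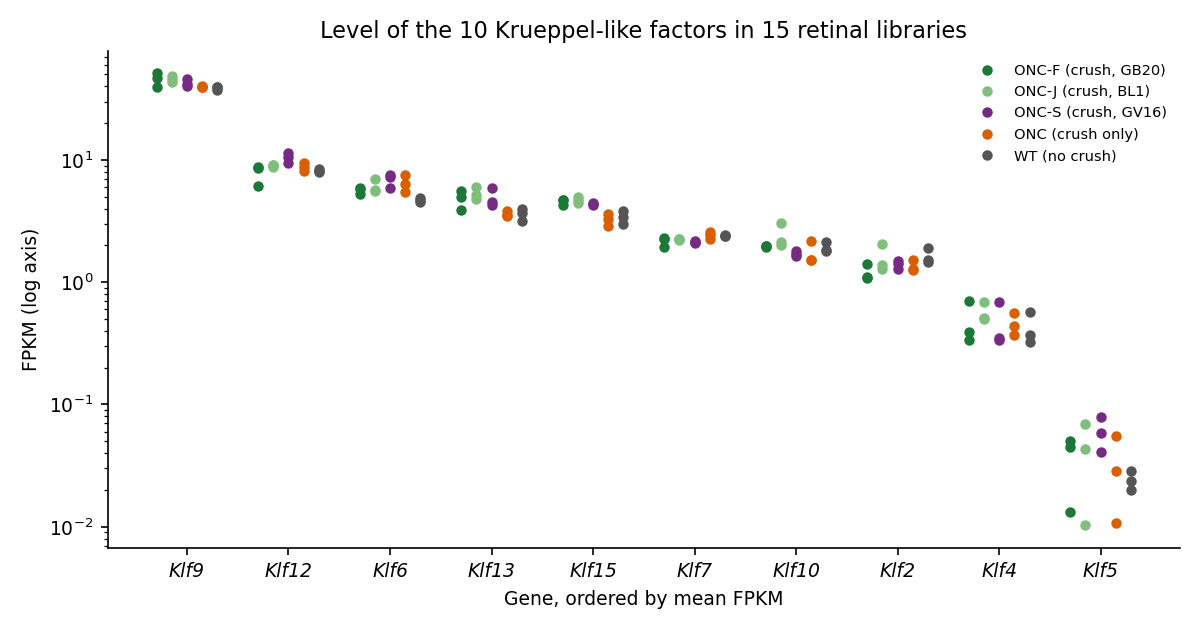
FPKM on a log axis (vertical) for the 10 KLF genes ordered by mean level (horizontal), with 1 point per library coloured by group. Klf9 lies above every other member in all 15 libraries, at 37.4 to 51.1 FPKM, and Klf5 lies below all others.

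Klf6 (ENSMUSG00000000078, chr13:5861482-5870394, plus strand on GRCm38) is an activator needed for optic axon growth in zebrafish. It was higher after crush. Its libraries had 25.5, 26.2 and 23.3 CPM in ONC-F retinas, 25.1, 30.6 and 24.4 CPM in ONC-J retinas, 26.0, 33.4 and 31.8 CPM in ONC-S retinas, 28.2, 33.4 and 24.4 CPM in ONC retinas, and 20.1, 21.6 and 20.9 CPM in WT retinas. All 12 crushed libraries were above all 3 WT libraries, a separation found for 4.73% of all genes, and the 4 crushed groups overlapped each other.

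With crush alone, Klf6 rose to 28.6 ± 4.54 CPM in ONC retinas, against 20.9 ± 0.768 CPM in WT retinas (SD, n = 3 each). The log2 fold change was 0.46 (SE 0.11, 95% interval 0.22 to 0.69), with an adjusted p of 0.0366 in edgeR's quasi-likelihood test. It was the 1 member of 9 called at an adjusted p under 0.05, where 2.11% of all genes were called, and 0.955% were called higher. The median log2 fold change of the 9 members was 0.01, and that of all tested genes was -0.00. Without ONC replicate 2, the library rich in Gfap, the log2 fold change of Klf6 was 0.33 (adjusted p = 0.274), and without both that library and WT replicate 1 it was 0.31 (adjusted p = 0.561). The call was also lost without WT replicate 1 (adjusted p = 0.151), WT replicate 2 (0.0905), WT replicate 3 (0.109) and ONC replicate 1 (0.0719). Of the 6 settings that left out a single library, 1 kept the call, and 6 of the 8 other settings kept it.

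Over all 4 crushed groups against WT, Klf6 had a log2 fold change of 0.40 (SE 0.09, adjusted p = 0.00904, edgeR), with 2 of 9 members called and 7.58% of all genes. Leaving out WT replicate 1 gave 0.38 (adjusted p = 0.0626), and leaving out both WT replicate 1 and ONC replicate 2 gave 0.34 (adjusted p = 0.0588). By group, the log2 fold change against WT was 0.26 in ONC-F (adjusted p = 0.332), 0.36 in ONC-J (adjusted p = 0.0899, or 0.0479 by DESeq2) and 0.54 in ONC-S (SE 0.11, adjusted p = 0.00175). The ONC-S call held in all 14 alternative settings.

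Klf6 in needled retinas did not pass the test against ONC. The log2 fold change was -0.20 in ONC-F (95% interval -0.43 to 0.04, adjusted p = 0.678), -0.10 in ONC-J (-0.33 to 0.14, adjusted p = 0.89) and 0.08 in ONC-S (-0.15 to 0.31, adjusted p = 0.684), by edgeR. Set directly against the sham site, ONC-F had 25.0 ± 1.52 CPM and ONC-S had 30.4 ± 3.90 CPM (SD, n = 3 each). The difference was -0.28 on the log2 scale (95% interval -0.51 to -0.05), with an adjusted p of 0.102. The highest ONC-F library, at 26.2 CPM, overlapped the lowest ONC-S library, at 26.0 CPM.

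Reactive gliosis genes and Klf6 peaked in the same library in some groups and not in others. The list has 16 genes, all of them tested, of which 1 was called higher in ONC than in WT and 15 had higher values at an unadjusted p under 0.05, where 11% of all genes had such a p in either direction. Without ONC replicate 2, 0 were called and 4 had such a p, where 7.9% of all genes did, and the 16 genes had a median of 0.51 on the log2 scale without that library and 1.15 with it. Its summed level was 658 to 708 CPM in ONC-F, 698 to 960 CPM in ONC-J, 552 to 1074 CPM in ONC-S, 562 to 1413 CPM in ONC and 511 to 539 CPM in WT retinas. ONC replicate 2 and ONC-J replicate 2 were the highest libraries of their groups for both Klf6 and the list, whereas ONC-S replicate 3 was highest for the list and ONC-S replicate 2 for Klf6. In ONC-F, replicate 3 had the highest list sum and the lowest Klf6, and in WT replicate 1 did, although by the mean log2 CPM of the list WT replicate 2 was highest, as it was for Klf6. In ONC, replicate 1 had a lower list sum than replicate 3 but more Klf6. In ONC-S replicate 1 and ONC replicate 1 the list stood near WT, at 552 and 562 CPM, while Klf6 was 26.0 and 28.2 CPM, above every WT library. The 18 tested microglial markers summed to 84.3, 151 and 94.9 CPM in ONC retinas, the highest in replicate 2, against 77.4, 78.5 and 76.4 CPM in WT retinas. Of them 1 was called higher in ONC with and without that library, while 11 had higher values at an unadjusted p under 0.05 with it and 1 without it. The part of these cells in the Klf6 difference was not tested.

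The genes whose profile over the 15 libraries was most like that of Klf6 were Il6st, Arhgef2 and Tpm4. Their root mean square difference from Klf6, in log2 CPM centred on each gene's mean, was 0.0864, 0.0910 and 0.0948, against 0.225 for the spread of Klf6 around its own mean, among 12444 genes searched. Il6st encodes gp130, the shared receptor subunit of the interleukin-6 cytokine family.

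**Figure D2:**
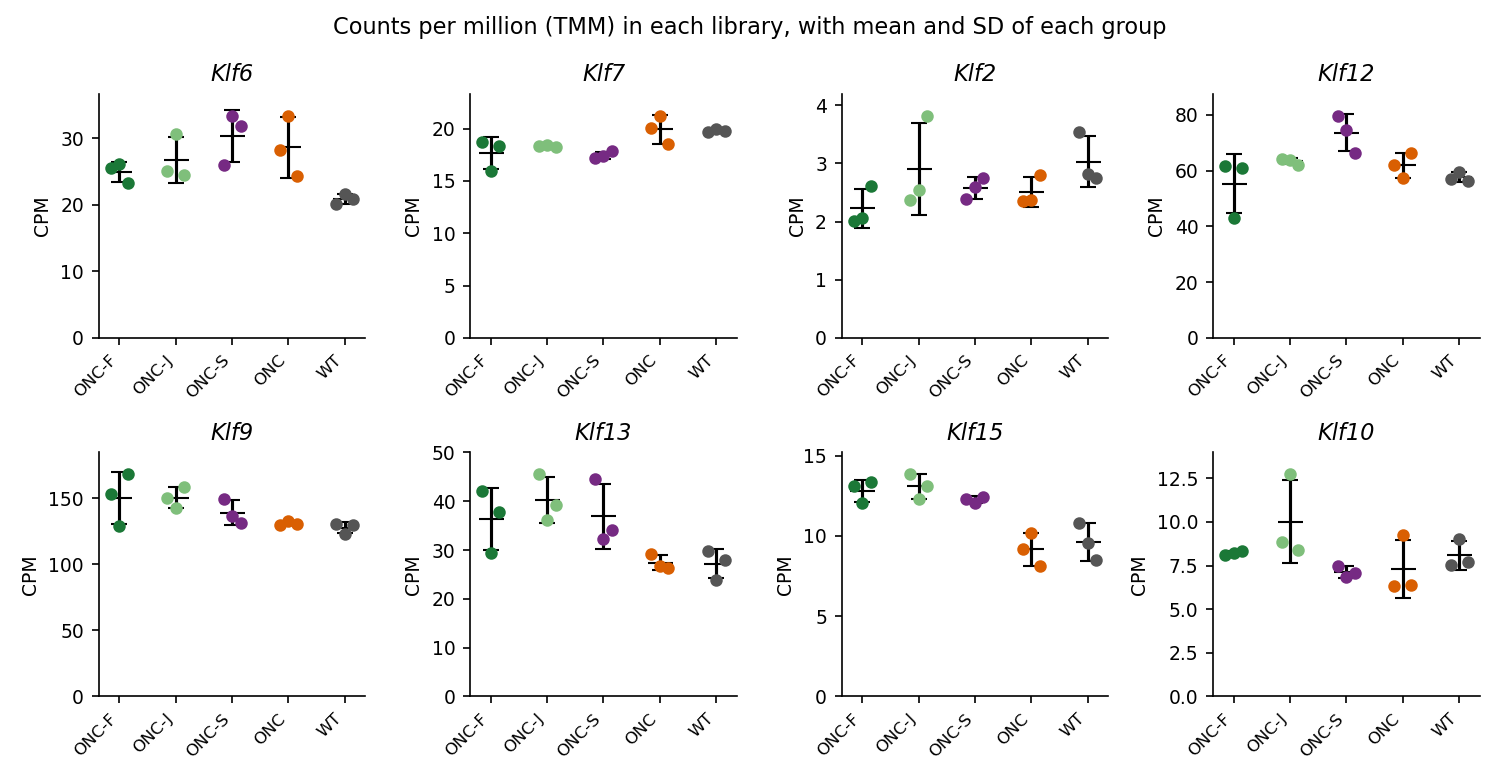
CPM scaled by TMM (vertical, from 0) for 8 members in the 5 groups (horizontal), with 1 point per library and a bar for the mean and SD of 3 libraries. The WT libraries of Klf6 lie at 20.1 to 21.6 CPM, below all crushed libraries, and the 9 needled libraries of Klf15 lie at 12.03 to 13.8 CPM, above the 6 others.

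Klf7 (ENSMUSG00000025959, chr1:64029447-64122282, minus strand), the close relative of Klf6 that also promotes axon growth, did not pass the test after crush. It had 20.01, 21.2 and 18.5 CPM in ONC retinas, against 19.6, 19.97 and 19.7 CPM in WT retinas. These ranges overlap, and the log2 fold change was 0.01 (95% interval -0.15 to 0.17). In needled retinas Klf7 had 18.7, 15.9 and 18.3 CPM in ONC-F, 18.4, 18.5 and 18.2 CPM in ONC-J, and 17.2, 17.4 and 17.8 CPM in ONC-S. All 9 were below the lowest WT library, and 7.15% of all genes separated needled from WT libraries in either direction. The log2 fold change against WT was -0.17 in ONC-F (adjusted p = 0.353), -0.11 in ONC-J (adjusted p = 0.524) and -0.18 in ONC-S (adjusted p = 0.0975), and over the 3 needled groups against ONC it was -0.16 (adjusted p = 0.236), so none of these passed. An antisense gene, Gm13748, overlaps exons of Klf7 and had 14 counts in all libraries together against 5549 for Klf7.

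Klf2 and Klf4 are activators best known from endothelial cells, where they answer to blood flow, and Klf4 also suppresses axon growth in RGCs. Klf2 (ENSMUSG00000055148, chr8:72319033-72321656, plus strand) had 2.35, 2.38 and 2.81 CPM in ONC retinas, against 3.54, 2.82 and 2.74 CPM in WT retinas. The groups overlapped, with a log2 fold change of -0.27 (95% interval -0.70 to 0.15, adjusted p = 0.711). Klf4 (ENSMUSG00000003032, chr4:55527143-55532466, minus strand) had 1.35, 1.13 and 1.72 CPM in ONC retinas, against 1.15, 1.76 and 1.002 CPM in WT retinas. With 0.08 (95% interval -0.63 to 0.80), a change of Klf4 was not detectable at this depth, and its replicates varied most among the 9 tested members, by 32.9% within groups. In needled retinas Klf2 had 2.01, 2.06 and 2.61 CPM in ONC-F, 2.37, 2.55 and 3.82 CPM in ONC-J and 2.38, 2.59 and 2.76 CPM in ONC-S, and Klf4 lay between 1.02 and 2.15 CPM in the 9 libraries. The ONC-F libraries of Klf2 were all below all WT libraries, a separation shown by 19.2% of all genes, with a log2 fold change of -0.44 (adjusted p = 0.365). Neither gene was called in any of the 12 comparisons. Endothelial markers summed to 400 to 443 CPM in ONC and 371 to 378 CPM in WT retinas, with 0 of 17 called by edgeR and 1 at an unadjusted p under 0.05. The endothelial targets of these factors, Nos3, Thbd and S1pr1, were not called between ONC and WT either, with 0 also at an unadjusted p under 0.05. Nos3, the endothelial nitric oxide synthase, was called lower in ONC-F than in WT (-0.40, SE 0.10, adjusted p = 0.0456) and in the 4 crushed groups against WT (-0.26, SE 0.08, adjusted p = 0.045). In ONC-S against ONC, 5 of the 17 endothelial markers were called lower and 1 higher, where 14.5% of all genes were called in either direction.

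Klf5 (ENSMUSG00000005148, chr14:99298691-99315036, plus strand), an activator of dividing epithelia, was close to the limit of detection. It had 1, 5 and 5 counts in ONC-F libraries, 4, 8 and 1 in ONC-J, 5, 7 and 8 in ONC-S, 3, 1 and 5 in ONC, and 3, 3 and 2 in WT libraries, or 61 in all. These counts are too few to compare groups. Markers of corneal epithelium, a tissue in which Klf5 is abundant, summed to 0.458 to 3.67 CPM over the 15 libraries.

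Klf12 (ENSMUSG00000072294, chr14:99870632-100284679, minus strand), a repressor that works through CtBP, was lower in ONC-F than in ONC-S retinas, the 1 of the 3 pairs of needled groups in which it was called. Its libraries had 61.6, 43.1 and 61.1 CPM in ONC-F retinas, 64.1, 63.9 and 62.0 CPM in ONC-J retinas and 79.7, 74.5 and 66.4 CPM in ONC-S retinas. In ONC retinas it had 61.9, 57.3 and 66.4 CPM, and in WT retinas 57.1, 59.6 and 56.2 CPM. All ONC-S libraries were above all ONC-F, ONC-J and WT libraries, while 29.9% of all genes did not overlap between ONC-F and ONC-S, 29.5% between ONC-J and ONC-S and 39.6% between ONC-S and WT.

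Klf12 had 55.2 ± 10.6 CPM in ONC-F and 73.5 ± 6.67 CPM in ONC-S (SD, n = 3 each). The log2 fold change was -0.42 (SE 0.10, 95% interval -0.62 to -0.21, adjusted p = 0.00837, edgeR), and Klf12 was the 1 member of 9 called, where 14.6% of all genes were. The call held in all 14 alternative settings, and without ONC-F replicate 2, its lowest library, the value was -0.26 (adjusted p = 0.035). ONC-J against ONC-S gave -0.21 (95% interval -0.42 to -0.01, adjusted p = 0.167), and ONC-F against ONC-J gave -0.20 (95% interval -0.41 to 0.01, adjusted p = 0.999). A share of 1 in 9 members is not above that of all genes. Against WT, Klf12 rose in ONC-S by 0.35 on the log2 scale (SE 0.10, adjusted p = 0.0145), a call that was lost without WT replicate 3 (0.33, adjusted p = 0.0514) or ONC-S replicate 1 (0.29, adjusted p = 0.0659). ONC-S against ONC gave 0.25 (adjusted p = 0.103), and ONC against WT gave 0.10 (adjusted p = 0.812). ONC-F passed neither test, with -0.07 against WT (adjusted p = 0.834) and -0.17 against ONC (adjusted p = 0.703).

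Markers of other cells differed between the same groups. Of 9 pigment epithelium markers 5 were called higher in ONC-F than in ONC-S and 0 lower, with a median log2 fold change of 0.96, and their sum was 124 to 207 CPM in ONC-F, 138 to 184 CPM in ONC-J, 69.0 to 106 CPM in ONC-S, 90.8 to 151 CPM in ONC and 78.8 to 162 CPM in WT retinas. Of 10 pericyte and smooth muscle markers 4 were called higher and 0 lower, with a median of 0.53, and their sum was 759 to 800 CPM in ONC-F and 718 to 736 CPM in ONC-S. Neuronal markers moved too: 4 of 10 bipolar cell markers and 3 of 10 cone markers were called higher in ONC-F than in ONC-S and 0 lower, with medians of 0.04 and 0.20. The cone sum was 1476 to 1539 CPM in ONC-F and 1186 to 1270 CPM in ONC-S, and the bipolar sum was 1775 to 1878 CPM in ONC-F and 1546 to 1796 CPM in ONC-S. In the same comparison 14.6% of all genes were called in either direction. No marker of the pigment epithelium and pericyte lists was at 0 in all 15 libraries. Their part in the Klf12 difference was not tested.

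The profiles most like that of Klf12 over the 15 libraries belonged to A930004J17Rik, Slc9a7 and Pclo, with root mean square differences of 0.0690, 0.0748 and 0.0817 against 0.191 for the spread of Klf12 itself. Pclo encodes Piccolo, a scaffold of the presynaptic zone.

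Klf15 (ENSMUSG00000030087, chr6:90462576-90475238, plus strand), known for its part in amino acid and lipid metabolism and as a target of the glucocorticoid receptor, was higher in needled retinas. It had 13.1, 12.03 and 13.3 CPM in ONC-F, 13.8, 12.3 and 13.1 CPM in ONC-J and 12.3, 12.1 and 12.4 CPM in ONC-S retinas. In ONC retinas it had 9.21, 10.2 and 8.14 CPM, and in WT retinas 10.8, 9.58 and 8.49 CPM. All 9 needled libraries were above all 6 libraries without needling, and 0.711% of all genes separated these libraries in either direction.

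Over the 3 needled groups against ONC, a comparison added after the levels had been seen, the log2 fold change of Klf15 was 0.47 (SE 0.09, 95% interval 0.28 to 0.66, adjusted p = 0.0192, edgeR). Klf15 and Klf13 were the 2 members called of 9, both higher, where 1.02% of all genes were called and 0.535% were called higher. The 9 needled libraries and the 3 ONC libraries did not overlap for these 2 members, as for 2.34% of all genes. The members had a median log2 fold change of 0.14, and all tested genes -0.01. The Klf15 call was lost without ONC replicate 1 (0.47, adjusted p = 0.0575) or ONC replicate 3 (0.40, adjusted p = 0.159). By group, Klf15 had 12.8 ± 0.688 CPM in ONC-F, 13.1 ± 0.759 CPM in ONC-J, 12.3 ± 0.195 CPM in ONC-S and 9.18 ± 1.03 CPM in ONC retinas (SD, n = 3 each). The log2 fold change against ONC was 0.48 in ONC-F (adjusted p = 0.254), 0.51 in ONC-J (adjusted p = 0.0914) and 0.42 in ONC-S (SE 0.11, adjusted p = 0.0132). Without ONC replicate 3 the ONC-S value was 0.34 (adjusted p = 0.0787).

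These comparisons share the ONC libraries, and those with WT share the WT libraries. In ONC-F against ONC 0 of 9 members were called by edgeR or DESeq2 and 4 had an unadjusted p under 0.05, where 0.00519% of all genes were called and 8.15% had such a p. In ONC-J against ONC 0 were called by edgeR and 2 by DESeq2, Klf13 and Klf15, and 4 had an unadjusted p under 0.05, where 0.125% of all genes were called and 8.33% had such a p. In ONC-S against ONC 2 were called, where 14.5% of all genes were called. The counts therefore stand against backgrounds that differ widely between the needled groups.

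Against WT, Klf15 had a log2 fold change of 0.41 in ONC-F (adjusted p = 0.0545), 0.44 in ONC-J (SE 0.11, adjusted p = 0.0227) and 0.35 in ONC-S (SE 0.11, adjusted p = 0.0222). In ONC-J 2 of 9 members were called against 3.61% of all genes, and in ONC-S 4 of 9 against 23.3%. In ONC-F 0 of 9 were called by edgeR and 1, Klf15, by DESeq2 (adjusted p = 0.0414), with 6 at an unadjusted p under 0.05, where 2.01% of all genes were called and 13.4% had such a p. The ONC-J call was lost without WT replicate 2 (adjusted p = 0.0802), WT replicate 3 (0.112), ONC-J replicate 1 (0.0889) or ONC-J replicate 3 (0.0532). The ONC-S call was lost without WT replicate 2 (adjusted p = 0.0637), WT replicate 3 (0.112) or ONC-S replicate 3 (0.0621). Crush alone did not move Klf15 past the test, with -0.07 (95% interval -0.30 to 0.16) in ONC against WT, and the 3 site pairs gave 0.06 for ONC-F against ONC-S (95% interval -0.16 to 0.28), 0.09 for ONC-J against ONC-S (-0.13 to 0.31) and -0.03 for ONC-F against ONC-J (-0.25 to 0.19).

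Klf13 (ENSMUSG00000052040, chr7:63886351-63938915, minus strand), a factor of the SIN3A branch best known from heart and T cells, was also higher in needled retinas. It had 42.0, 29.4 and 37.7 CPM in ONC-F, 45.5, 36.2 and 39.1 CPM in ONC-J and 44.5, 32.2 and 34.0 CPM in ONC-S retinas. In ONC retinas it had 29.2, 26.8 and 26.4 CPM, and in WT retinas 29.8, 23.9 and 28.0 CPM. All 9 needled libraries were above all 3 ONC libraries, whereas ONC-F replicate 2 lay below the highest WT library. Replicate 1 was the highest library of its group in all 5 groups.

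The needled retinas had a log2 fold change of Klf13 of 0.46 against ONC (SE 0.11, 95% interval 0.23 to 0.69, adjusted p = 0.0488, edgeR). As for Klf15, the comparison was added after the levels had been seen. This call was lost without ONC replicates 1 (adjusted p = 0.0775), 2 (0.195) or 3 (0.196), ONC-F replicates 1 (0.0771) or 3 (0.062), ONC-J replicate 1 (0.0728), or ONC-S replicates 1 (0.051) or 3 (0.0501), with values between 0.41 and 0.51. In ONC-S against ONC the log2 fold change was 0.43 (SE 0.13, adjusted p = 0.0307). Without ONC-S replicate 1 it was 0.27 (adjusted p = 0.18), and the call was also lost without ONC replicate 2 (adjusted p = 0.087) or 3 (0.0986). ONC-F against ONC gave 0.40 (adjusted p = 0.422) and ONC-J against ONC gave 0.55 (adjusted p = 0.114).

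Against WT, Klf13 was higher by 0.57 on the log2 scale in ONC-J (SE 0.13, adjusted p = 0.0152) and by 0.45 in ONC-S (SE 0.13, adjusted p = 0.0167), while ONC-F had 0.41 (adjusted p = 0.131). The ONC-J call was lost without WT replicate 2 (0.48, adjusted p = 0.0961) or ONC-J replicate 1 (0.47, adjusted p = 0.0796), and the ONC-S call without WT replicate 2 (0.35, adjusted p = 0.0929) or ONC-S replicate 1 (0.29, adjusted p = 0.113). Over all 4 crushed groups against WT it had 0.36 (SE 0.10, adjusted p = 0.0407). Without WT replicate 2 that value was 0.27 (adjusted p = 0.264). The call was also lost without WT replicate 1 (adjusted p = 0.0568) or 3 (0.105), ONC replicate 1 (0.057), ONC-F replicate 1 (0.0567) or 3 (0.0522), or ONC-J replicate 1 (0.0549). In ONC against WT the value was 0.01 (95% interval -0.26 to 0.29), with 27.4 ± 1.52 CPM in ONC and 27.2 ± 3.06 CPM in WT retinas (SD, n = 3 each).

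**Figure D3:**
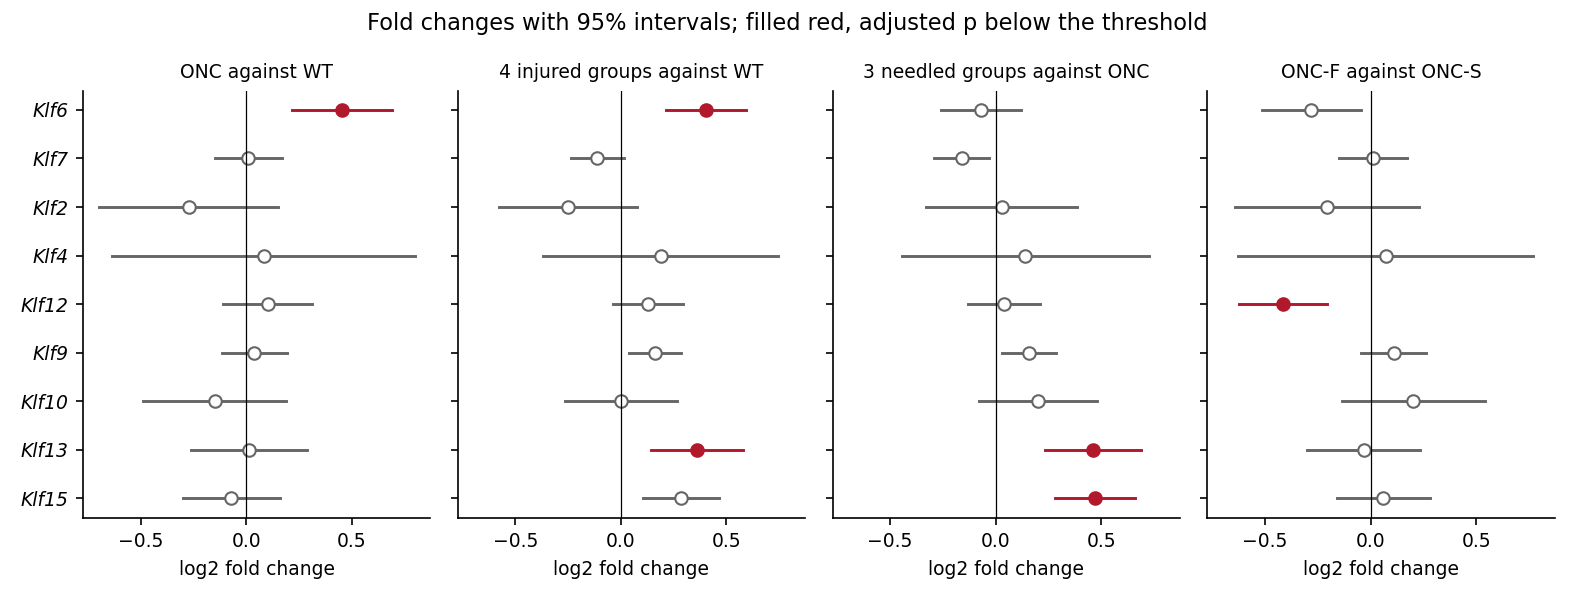
Log2 fold changes (horizontal) with 95% intervals for the 9 tested members (vertical) in 4 comparisons, filled red where the adjusted p was under 0.05. Klf6 is filled in ONC against WT, Klf6 and Klf13 in the 4 injured groups against WT, Klf13 and Klf15 in the 3 needled groups against ONC, and Klf12, below 0, in ONC-F against ONC-S. The comparison of the 3 needled groups with ONC was added after the levels had been seen.

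Klf9 (ENSMUSG00000033863, chr19:23141226-23168134, plus strand), a suppressor of axon growth induced by thyroid hormone and glucocorticoids, was the most abundant member. It had 153, 129 and 168 CPM in ONC-F, 150, 143 and 159 CPM in ONC-J and 150, 137 and 131 CPM in ONC-S retinas. In ONC retinas it had 130, 133 and 131 CPM, and in WT retinas 130, 123 and 130 CPM. Of the 9 needled libraries, 7 were above all ONC libraries. ONC-F and ONC-S overlapped ONC. All ONC-S libraries were above all WT libraries, where 39.6% of all genes did not overlap in either direction. By edgeR, no comparison of Klf9 passed the test: the log2 fold change of the 3 needled groups against ONC was 0.16 (95% interval 0.03 to 0.29, adjusted p = 0.229), and that of ONC against WT was 0.04 (-0.12 to 0.19). Against WT the values were 0.23 in ONC-F (adjusted p = 0.131) and 0.24 in ONC-J (adjusted p = 0.0869, or 0.0322 by DESeq2).

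Klf10 (ENSMUSG00000037465, chr15:38291463-38300706, minus strand), an early gene of TGF-beta signalling, had 8.10, 8.24 and 8.31 CPM in ONC-F, 8.87, 12.7 and 8.40 CPM in ONC-J and 7.49, 6.82 and 7.08 CPM in ONC-S retinas. In ONC retinas it had 6.35, 9.23 and 6.36 CPM, and in WT retinas 7.52, 9.003 and 7.70 CPM. All ONC-J libraries were above all ONC-S libraries, with ONC-J replicate 2 well above the rest, and 29.5% of all genes separated these groups. Klf10 was the 1 member of 9 called in ONC-J against ONC-S, with a log2 fold change of 0.49 (SE 0.16, adjusted p = 0.0468), where 12.9% of all genes were called. Without ONC-J replicate 2 it was 0.27 (adjusted p = 0.286), and the call was lost without ONC-S replicates 1 (adjusted p = 0.0701), 2 (0.125) or 3 (0.107). In the same comparison 5 of 9 pigment epithelium markers, 3 of 10 cone markers, 3 of 10 bipolar cell markers and 2 of 10 pericyte markers were called higher and 0 of each list lower, and their part was not tested. Between the sites GB20 and BL1, ONC-F against ONC-J, edgeR and DESeq2 each called 0 of 9 members, and 0 had an unadjusted p under 0.05, where 0% of all genes were called and 3.35% had such a p.

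Genes known to respond to glucocorticoids were examined beside Klf9 and Klf15, which belong to that response in other tissues. Of 14 tested, none of them a KLF and 2 of them, Cebpd and Lcn2, also on the gliosis list, 2 were called higher and 0 lower in the 3 needled groups against ONC, where 1.02% of all genes were called, with a median log2 fold change of 0.16. Fkbp5, a chaperone of the glucocorticoid receptor, had 53.3, 44.0 and 27.0 CPM in ONC-F, 41.7, 61.0 and 23.8 CPM in ONC-J, 72.2, 56.4 and 53.1 CPM in ONC-S, 23.7, 23.4 and 20.6 CPM in ONC and 24.7, 22.1 and 21.7 CPM in WT retinas. Every needled library was above every ONC library, although ONC-J replicate 3 exceeded the highest of them, at 23.7 CPM, only slightly and lay below WT replicate 1. Its log2 fold change was 1.07 (SE 0.21, adjusted p = 0.0214). Zbtb16, a zinc finger repressor, had 1.31 (SE 0.30, adjusted p = 0.0411), at 4.47 to 20.2 CPM in needled and 3.74 to 4.01 CPM in ONC retinas.

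The order of the needled libraries by Klf15 was not that by Fkbp5. ONC-J replicate 3 and ONC-F replicate 3 had the lowest Fkbp5 of the 9 needled libraries but 13.1 and 13.3 CPM of Klf15, whereas ONC-S replicate 1 had the highest Fkbp5, at 72.2 CPM, with 12.3 CPM of Klf15. In ONC-S against ONC, 5 of the 14 genes were called higher and 0 lower, where 14.5% of all genes were called in either direction, among them Fkbp5 (1.42, adjusted p = 0.000703), Zbtb16 (1.84, adjusted p = 0.00109), Sgk1 (0.35, adjusted p = 0.00556) and Plin4 (1.34, adjusted p = 0.0129). In ONC against WT 0 were called and 4 had an unadjusted p under 0.05. The summed level of the list was 772 to 837 CPM in ONC-F, 832 to 868 CPM in ONC-J, 823 to 891 CPM in ONC-S, 731 to 806 CPM in ONC and 731 to 805 CPM in WT retinas. Its part in the Klf13 and Klf15 differences was not tested.

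**Figure D4:**
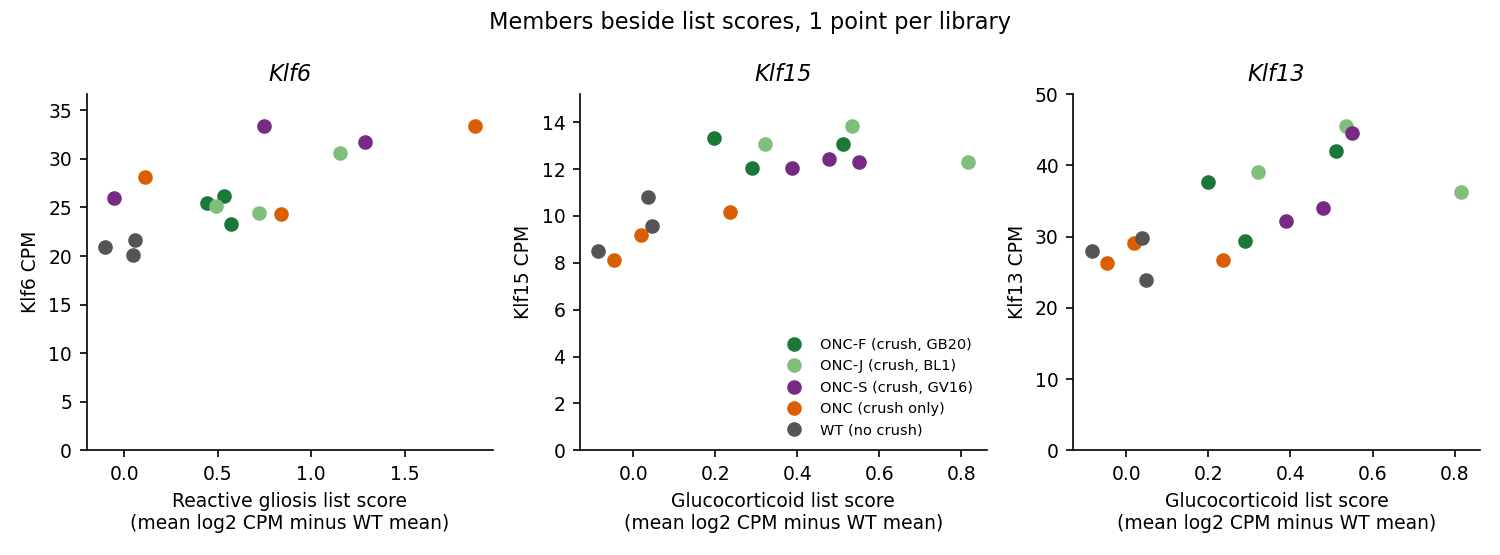
CPM of Klf6, Klf15 and Klf13 (vertical, from 0) beside the score of a gene list (horizontal, mean log2 CPM minus the WT mean), with 1 point per library coloured by group. In the left panel ONC replicate 2 lies far right at 33.4 CPM of Klf6, and in the middle panel the 9 needled libraries lie at 12.03 CPM of Klf15 or more over a wide span of the list score.

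The profiles most like that of Klf13 belonged to Xpo1, Sun2 and Gnb5, with root mean square differences of 0.119, 0.125 and 0.146 against 0.281 for the spread of Klf13. Those most like that of Klf15 belonged to Sun2, Pip4k2c and Hspa14, at 0.125, 0.136 and 0.138 against 0.238. Xpo1 is the main nuclear export receptor, and Sun2 is a protein of the inner nuclear membrane.

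Among cofactors and regulators of KLF proteins, the share called in ONC-S retinas was near that of all genes. Of 17 genes, 0 were called in ONC against WT, where 1, Stat3, had an unadjusted p under 0.05 (0.63, adjusted p = 0.0587). Stat3 is also on the gliosis list. Without ONC replicate 2, 1 of the 17 had such a p, and without that library and WT replicate 1 together 0 did. In ONC-S against ONC 3 of the 17 were called, where 14.5% of all genes were: Ep300 and Crebbp, the acetyltransferases recruited by the activator branch, were called higher by 0.41 (SE 0.07, adjusted p = 0.000521) and 0.40 (SE 0.06, adjusted p = 0.000251), and the deacetylase Hdac3 fell by 0.29 on the log2 scale (SE 0.06, adjusted p = 0.00465). In ONC-F against ONC-S the values of Ep300, Crebbp and Hdac3 were -0.44, -0.42 and 0.31, the 3 called of 17, where 14.6% of all genes were called. Against WT, ONC-S had 3 of the 17 called higher and 1 lower, where 23.3% of all genes were called.

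The files hold 16 other genes of the KLF and SP families, of which 11 were tested. By mean FPKM the highest were Sp4 with 21.7, Sp3 with 16.6, Sp1 with 9.89, Sp2 with 9.28 and Klf16 with 5.52, so Klf9 was the highest of all 26 genes. None of the other tested KLF genes, Klf1, Klf3, Klf8, Klf11 and Klf16, was called in any of the 12 comparisons. Of the 6 SP genes tested, 0 were called in ONC against WT. In ONC-S against ONC 1 was called higher and 2 lower, where 14.5% of all genes were called in either direction. Sp2 had 0.29 (adjusted p = 0.0182), Sp1 had -0.18 (adjusted p = 0.0429) and Sp6 had -1.55 (adjusted p = 0.034). The Sp6 value rests on few counts, 5 to 11 per library in ONC-S and 21 to 23 in ONC retinas.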

How the data were processed

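Retinal RNA from 15 mouse libraries was sequenced by the study. The authors aligned reads with HISAT2 (version 2.0.5) to mm10 and deposited gene counts from featureCounts and FPKM derived from them, which normalise each count by transcript length and library size. The annotation release and the strand setting of counting are not given in the sources used here. Deposited counts were used as they stood: genes with few counts were removed (filterByExpr, minimum count 10, minimum total 15), leaving 19259 of 54532. CPM were scaled by TMM. One edgeR (4.0.16) quasi-likelihood model of the 5 groups was fitted in R (4.3.3), with p-values adjusted by Benjamini and Hochberg over all tested genes. A gene was called at an adjusted p under 0.05. The alternatives were DESeq2 (1.42.0), RLE factors, no filter, a filter of 1 CPM in 3 libraries, compared libraries only, a replicate block, limma (3.58.1) on log2(FPKM + 1), and leaving out each library. The authors' FPKM served to compare levels between genes.

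The 10 members, the gene lists and the tests were chosen with earlier results of these data known. All members could be named, every tested KLF and SP gene, up to 4 genes per other list with the smallest p, and the 3 most alike profiles, searched among genes with a mean of at least 5 CPM, of each member called against WT or ONC. The levels of Gfap and Cryaa in single libraries, and those of Fkbp5 beside Klf15, were chosen after values were seen. Coordinates are from GENCODE M21. The fits were tested on simulated data.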

Additional observations from a re-analysis of the deposited data

Results flagged for a closer look

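A pair of member differences between needling sites passed a direct test. Klf12 had a log2 fold change of -0.42 in ONC-F against ONC-S, and Klf10 had 0.49 in ONC-J against ONC-S. Without ONC-F replicate 2 the Klf12 value was -0.26, still called. The Klf10 value was 0.27 without ONC-J replicate 2, and its call was lost without that library and without each of the 3 ONC-S libraries. Both involve the ONC-S libraries, in which 14.6% and 12.9% of all genes were called in the same comparisons. For both, the needling site and a possible batch of the ONC-S libraries cannot be told apart.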

How the results depend on the processing

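The number of members called moved by more than 1.5 times as follows. With limma on log2(FPKM + 1) it was 0 in ONC against WT (main value 1), 1 in ONC-J against WT (2), 1 in ONC-S against ONC (2), 0 in ONC-J against ONC-S (1) and 1 in the 3 needled groups against ONC (2). In that order limma called 327 of all genes (main value 407), 528 (696), 2423 (2791), 2049 (2484) and 92 (197). With DESeq2 the number of members called was 1 in ONC-F against WT (0), 4 in ONC-J against WT (2) and 2 in ONC-J against ONC (0). Of all genes, DESeq2 called 465 (387), 817 (696) and 82 (24) there. With no low-count filter the number of members called was 3 in ONC-F against WT, 4 in ONC-J against WT, 2 in ONC-F against ONC, 2 in ONC-J against ONC, 2 in ONC-F against ONC-S and 2 in ONC-J against ONC-S. Calls among all 36096 genes then tested rose as well. In the same order they were 910 (main value 387), 1288 (696), 336 (1), 356 (24), 3056 (2816) and 2832 (2484). With only the compared libraries the number of members called was 4 in ONC-J against WT, 1 in ONC-J against ONC and 0 in ONC-J against ONC-S. All genes called there were 742 (696), 26 (24) and 1841 (2484). Without WT replicate 1 and ONC replicate 2 together, an alternative chosen after seeing the data, the number of members called was 0 in ONC against WT, 1 in ONC-F against WT, 1 in ONC-S against ONC, 1 in the 4 crushed groups against WT and 1 in the needled groups against ONC. All genes called without both were, in that order, 218 (407), 267 (387), 1587 (2791), 758 (1459) and 17 (197). The cause was not tested. Smaller moves were from 2 to 3 members in the 4 crushed groups against WT (DESeq2, RLE factors, no filter, the 1 CPM filter and the block), in ONC-S against ONC (no filter, compared libraries only), in the needled groups against ONC (no filter) and in ONC-J against WT (block), and from 4 to 3 in ONC-S against WT (limma). Under those settings 1458 to 2015 of all genes were called in the 4 crushed groups (main value 1459). For the others the numbers were 3037 and 2619 in ONC-S against ONC (2791) and 853 in the needled groups (197). ONC-J against WT had 839 (696) and ONC-S against WT 4016 (4479).

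Leaving out 1 library at a time gave 0 to 1 members called in ONC against WT, 0 to 2 in ONC-F against WT, 0 to 2 in ONC-J against WT, 2 to 4 in ONC-S against WT, 0 in ONC-F against ONC and in ONC-J against ONC, 0 to 2 in ONC-S against ONC, 1 to 2 in ONC-F against ONC-S, 0 to 1 in ONC-J against ONC-S, 0 in ONC-F against ONC-J, 1 to 4 in the 4 crushed groups against WT and 0 to 2 in the 3 needled groups against ONC. All genes called moved too, from 271 to 390 in ONC against WT and 204 to 459 in ONC-F against WT. ONC-J against WT had 379 to 698, ONC-S against WT 3314 to 3885 and ONC-S against ONC 1722 to 2270. ONC-F against ONC had 0 to 3 and ONC-J against ONC 2 to 61. Against ONC-S, ONC-F had 1657 to 2537 and ONC-J 1358 to 2112. The 4 crushed groups against WT had 710 to 1612 and the 3 needled groups against ONC 20 to 289. With 2 libraries left in a group, fewer degrees of freedom remain. No called member changed direction under any alternative. Of 76 member comparisons called under no setting, 30 changed sign under some setting.

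The study was repeated in replicate experiments, but the labels do not say that a number marks one. The numbers were not taken to pair the libraries. Correlations of same-numbered libraries ran from -0.09 to 0.18, and in 0 of 10 pairs of groups did all exceed 0.1. These values cannot exclude pairing. The replicate block raised the number of all genes called in every comparison except ONC-F against ONC-J, where it stayed at 0. In ONC-J against ONC 48 genes were called with it (main value 24), and in the 3 needled groups against ONC 358 (197). With the replicate block 2 members were called in ONC-F against WT (Klf13 and Klf15, adjusted p = 0.00493 and 0.0488), 1 in ONC-J against ONC (Klf13, 0.0023) and 2 in ONC-F against ONC-S (Klf12 and Klf6, 0.00612 and 0.0337), and Klf6 was gained in ONC-J against WT (0.0283) and Klf15 in the 4 crushed groups against WT (0.045).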
